A study of Mus musculus with 2 samples.

Results

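Macrophages were examined in the aorta-gonads-mesonephros (AGM), the tissue around the dorsal aorta, of mouse embryos at E11. They were chosen by their UMI counts (unique molecular identifiers, 1 per captured RNA molecule) of 5 genes, as the barcodes with 2000 or more UMIs and under 10% of UMIs from mitochondrial genes whose UMIs of C1qa, C1qb, C1qc, Fcrls and Csf1r summed to 10 or more. This rule kept 290 of 16418 barcodes, 157 of 8253 in the wild-type (WT) library and 133 of 8165 in the knockout (KO) library. The kept barcodes are called members here, and the remaining 16128 are called other barcodes. Since these 5 genes chose the members, their levels describe the choice, and so does every contrast of members with other barcodes.

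The study examined cells around the dorsal aorta, where the first hematopoietic stem cells arise, in embryos with and without the receptor PDGFRβ. The WT library came from PDGFRB +/+ embryos and the KO library from PDGFRB -/- embryos, from a line kept as heterozygotes on a C57BL/6J background. Whole AGMs of both were dissociated with collagenase type I and loaded for 7000 cells on the 10x Chromium 3′ platform. Each genotype gave 1 library, and the labels do not say how many embryos were pooled in it. No test between genotypes is possible, and all 95% intervals below cover counting error only.

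Macrophages of the early embryo arise from yolk sac progenitors, seed the tissues through the blood and multiply there. They depend on CSF1R, a receptor tyrosine kinase for CSF1 and IL-34, and on the transcription factor PU.1, encoded by Spi1. They engulf dying cells, degrade them in lysosomes and secrete C1q, the recognition protein that starts the classical complement cascade.

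The deleted gene was checked first. Pdgfrb had 61 UMIs in WT members, or 17 CPM (counts per 1e6 UMIs of the members), and 1 UMI in KO members, or 0.390 CPM. In the other barcodes its level was 43.8 CPM (WT) and 7.22 CPM (KO), and 34.3% and 9.96% of them held a UMI. The KO library was thus lower in both populations but not empty of Pdgfrb UMIs, and whether the remaining reads come from outside the deleted part was not tested. Xist, the RNA that coats the inactive X chromosome, had 2757 UMIs in WT members and 0 in KO members. The Y-linked genes Ddx3y and Eif2s3y had 0 UMIs in WT members and 122 and 155 in KO members. Sex, genotype and library therefore cannot be told apart.

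Members made up 1.90% (1.62 to 2.22%) of the WT barcodes and 1.63% (1.37 to 1.93%) of the KO barcodes. The KO share over the WT share was -0.22 (-0.57 to 0.12) on the log2 scale, so that no difference in share was detectable beyond counting error. With a mitochondrial share under 5% this ratio turned to 0.17. The study, with its own cell calling and clusters, reported a significant change in the macrophage share between the genotypes. That share is of a different set of cells. The median depth was 19706 UMIs over 4121 genes for WT members and 16695 UMIs over 3777 genes for KO members, against 13205.5 and 12351 UMIs in the other barcodes. Mitochondrial genes gave a median of 5.18% of their UMIs in WT and 5.14% in KO, against 5.28% and 5.63% in the other barcodes. Members were thus deeper than the remaining barcodes in both libraries, and the WT members deeper than the KO members. The libraries shared 20 barcodes that passed the filters, none of which was a member in both.

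The marker sum, by which members were chosen, reached a median of 145 UMIs in WT and 141 in KO members, with maxima of 448 and 391, while 96.6% and 97.9% of the other barcodes held no UMI of the 5 genes. Just inside the threshold, at 10 to 14 marker UMIs, lay 10 WT and 10 KO barcodes. Just outside it, at 5 to 9 marker UMIs, lay 18 and 16, with 536 and 783 CPM of Tyrobp and 24.1 and 0 CPM of Adgre1. All of these 18 and 16 barcodes held 5 or more UMIs of a list of 20 pan-macrophage genes. So did 85 of 257 WT and 33 of 156 KO barcodes at 1 to 4 marker UMIs, with median depths of 18415 and 16989 UMIs. This criterion takes no account of depth and does not by itself mark a macrophage. Barcodes thus lay on both sides of the threshold, which does not mark a gap. Median depths were 3364 (WT) and 3720.5 (KO) UMIs at 10 to 14 marker UMIs and 7866.5 and 3714 UMIs at 5 to 9, against 20201 and 17274 UMIs at 20 or more. Some members at 10 to 14 marker UMIs were deep, with up to 47756 UMIs in WT and 35180 UMIs in KO. The WT barcodes at 5 to 9 marker UMIs also held 2582 CPM of the collagen gene Col3a1, against 173 CPM at 20 or more.

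**Figure D1:**
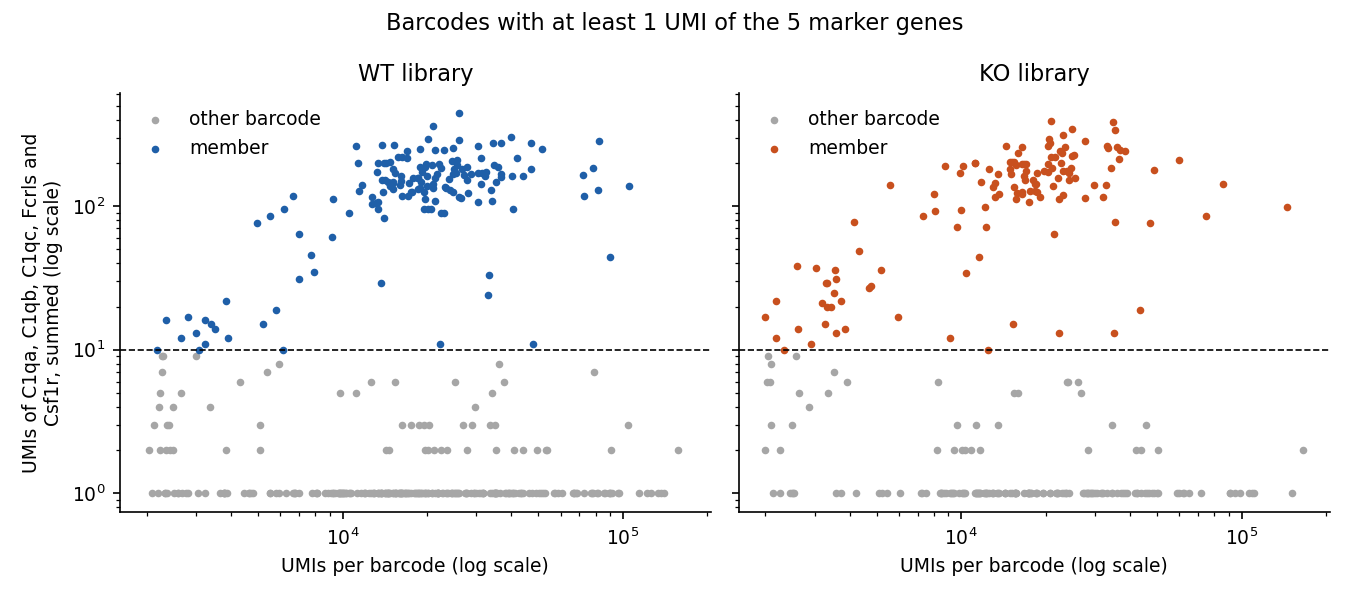
Summed UMIs of the 5 marker genes (y axis, log scale) against UMIs per barcode (x axis, log scale) for each barcode with at least 1 marker UMI, in the WT (left) and KO (right) library; the dashed line is the threshold of 10. The members reach up to 448 (WT) and 391 (KO) marker UMIs, and barcodes lie on both sides close to the line.

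The 3 C1q genes lie next to each other on chromosome 4 of GRCm38, C1qb at chr4:136880129-136886187, C1qc at chr4:136889804-136893065 and C1qa at chr4:136895917-136898803, all on the minus strand. In WT members C1qa reached 1307 CPM, C1qb 2311 CPM and C1qc 1598 CPM, and in KO members 1705, 2728 and 1627 CPM. Each gene had a UMI in at least 97.7% of the members of either library and stood at 0.962 CPM or less in the other barcodes. The promoters of C1qb and C1qc are shown because these genes define the members. The windows run from 250 bases before to 50 bases after the start and come from RefSeq on GRCm38.p6, C1qb at chr4:136886151-136886450 and C1qc at chr4:136892865-136893164, both on the minus strand. They are written in the direction of transcription, with capitals marking a PU.1-type motif, GAGGAAGT or its reverse complement ACTTCCTC.
C1qb: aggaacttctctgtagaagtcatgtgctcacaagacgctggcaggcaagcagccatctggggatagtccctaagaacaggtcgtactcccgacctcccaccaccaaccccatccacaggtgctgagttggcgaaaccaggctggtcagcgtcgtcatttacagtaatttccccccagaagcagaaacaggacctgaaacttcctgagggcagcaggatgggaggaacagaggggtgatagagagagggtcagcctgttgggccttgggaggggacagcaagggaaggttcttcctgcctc
C1qc: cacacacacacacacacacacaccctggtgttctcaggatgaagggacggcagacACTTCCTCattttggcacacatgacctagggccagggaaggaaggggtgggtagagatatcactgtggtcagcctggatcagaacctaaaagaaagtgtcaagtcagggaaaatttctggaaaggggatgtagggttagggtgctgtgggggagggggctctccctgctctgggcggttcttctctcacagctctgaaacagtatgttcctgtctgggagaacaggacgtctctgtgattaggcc
The C1qc window holds the motif once, and these letters do not occur in the C1qb window.

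Across all genes, 3500 had at least 100 UMIs in the members of each library, and 261 of them (7.46%) were at least 8-fold higher in members than in the other barcodes of both libraries. The median over the 3500 genes of the smaller of the 2 log2 ratios was -0.07. Ms4a7, a tetraspan membrane protein of macrophages on chromosome 19, led the ranking with 240.0 CPM in WT and 355 CPM in KO members against 0.0478 and 0.10 CPM in the other barcodes. It is followed by the C1q genes, Mrc1 (the mannose receptor CD206), Fcrls, Folr2 (a folate receptor), C3ar1 (the receptor of the complement fragment C3a), Adap2 and Trem2 (a lipid receptor). The remaining 10 of the first 20 are Ms4a6b, Ccl24, Adgre1, Cxcl2, Ccl12, Gpr34, Ms4a6d, Clec4n, Ccl4 and Aif1. Mrc1 reached 630.2 and 579.8 CPM, Folr2 61.0 and 42.5 CPM, C3ar1 239 and 249 CPM and Trem2 316 and 427 CPM in WT and KO members, all at most 0.258 CPM in the other barcodes. Apart from naming the most abundant gene of some lists, levels are compared here between barcodes and libraries, not between genes.

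The label was examined with markers that the rule did not use. All 19 tested genes of a pan-macrophage list of 20 were at least 8-fold higher in members, against 7.46% of all genes tested. Genes under 100 UMIs in the members of either library enter neither this count nor the later counts of 8-fold genes. The list summed to 9599.8 CPM in WT and 10428 CPM in KO members against 147 and 154 CPM in the other barcodes. Adgre1, which encodes F4/80, reached 239 and 216 CPM and had a UMI in 88.5% and 81.2% of members, against 0.420% and 0.174% of the other barcodes. Tyrobp, an adaptor of activating receptors, reached 1218 and 1462 CPM, and Cx3cr1, the fractalkine receptor, 681 and 774 CPM. Ptprc, which encodes CD45, reached 152 and 168 CPM. The members thus carried the general macrophage program in both libraries, and nearly every member held UMIs of it.

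All 8 tested genes of a list of 13 resident macrophage receptors were at least 8-fold higher in members, against 7.46% of all genes tested. Of 12 microglia-associated genes, 6 could be tested and 5 were 8-fold higher. Beside Mrc1 and Folr2, the first list holds Stab1, a scavenger receptor, at 672 and 548 CPM for WT and KO, Dab2, an endocytic adaptor, at 828 and 626 CPM, and Pf4 at 993 and 1191 CPM. Timd4, a phosphatidylserine receptor of many resident macrophages, had too few UMIs to be tested, at 10.0 and 12.5 CPM. Cd163 had 2 UMIs in each library, and Vsig4 and Marco had none. Of the microglia-associated genes, P2ry12 stood at 56.8 and 55.0 CPM, Gpr34 at 83.3 and 96.3 CPM and Hpgds at 192 and 184 CPM. Sall1, a transcription factor of adult microglia, stood at 1.39 and 5.07 CPM, below the 5.79 and 8.18 CPM of the other barcodes, and Tmem119 at 23.9 and 17.2 CPM, below their 50.1 and 48.9 CPM. The profile was thus that of resident macrophages with part of the microglial genes, without Sall1 and Tmem119 above the other cells.

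Of the genes of circulating monocytes, Ly6c2, Flt3 and Chil3 were near 0, while the list as a whole was above the other barcodes. Ly6c2 had 3 UMIs in WT and 1 in KO members, Flt3 3 and 2, and Chil3 none. Ccr2, the receptor for CCL2, was at 9.19 and 14.8 CPM with a UMI in 5.10% and 6.02% of members. The whole list of 10 monocyte genes summed to 86.6 and 57.7 CPM, against 21.3 and 16.9 CPM in the other barcodes, and in members Plac8 made up 68.8 and 33.5 CPM. In WT 3 members, and in KO 4, held as many UMIs of the list as all others together. No gene here reports the site of origin, so the yolk sac in the label was not examined by these data.

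Members also held RNA of other cell types in small amounts. The erythroid list, led by the embryonic globin Hbb-y, summed to 365 and 202 CPM in members of WT and KO. This is 0.893% and 0.958% of its level in free RNA, measured in barcodes with 1 to 100 UMIs, where it stood at 40856 and 21047 CPM. The mesenchymal list of 10 genes, led by Col3a1 in WT and by Col1a2 in KO, summed to 757 and 457 CPM, 35.6% and 25.1% of the free RNA level. It was concentrated in few members: 5 of 157 in WT and 4 of 133 in KO held as much of it as all others together, against 46 and 33 for the erythroid list. The 25 WT and 19 KO members with 10 or more of its UMIs had median depths of 40121 and 32941 UMIs. The stem and progenitor list, led by Cd48, summed to 102 and 72.9 CPM, against 113 and 118 CPM in the other barcodes, and the mast cell and megakaryocyte list to 13.9 and 6.63 CPM. Endothelial genes summed to 37.9 and 33.1 CPM and the genes of neural, muscle and epithelial cells to 23.1 and 41.7 CPM. Myeloid progenitor and granulocyte genes reached 60.1 CPM (WT) and 8.19 CPM (KO), and 2 and 3 members held as much of that as all others together. With the decile of members richest in markers of other cells left out, 257 genes in place of 261 were at least 8-fold higher.

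**Figure D2:**
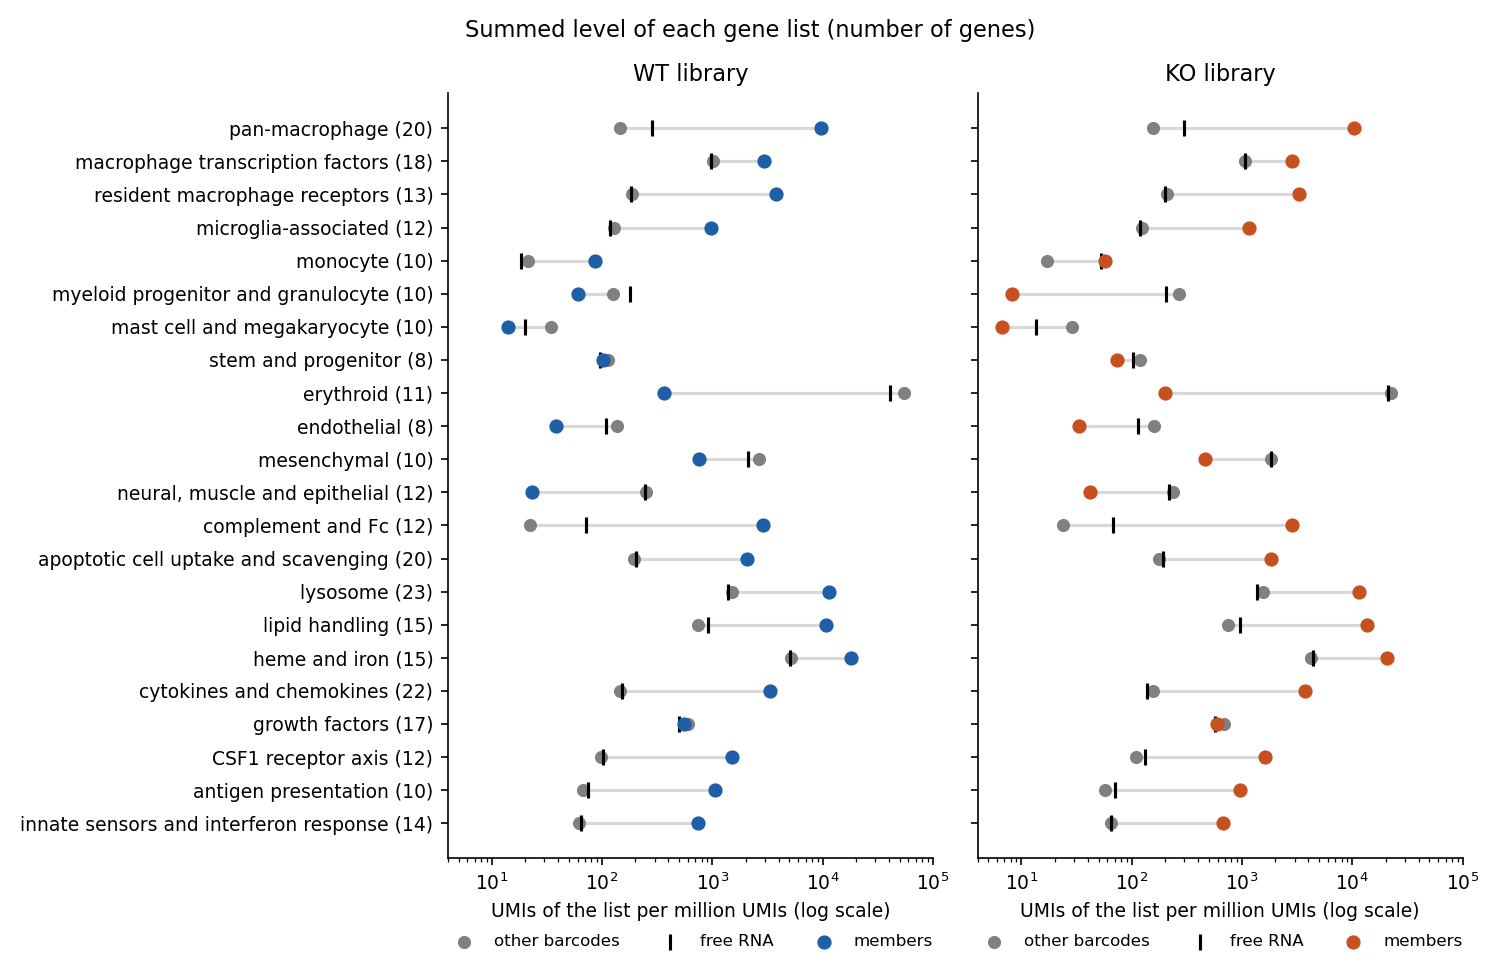
Summed level of each gene list in CPM (x axis, log scale) in members (coloured points), other barcodes (grey points) and free RNA (black ticks), for the WT (left) and KO (right) library; the number of genes stands in parentheses. The pan-macrophage list reaches 9599.8 and 10428 CPM in members against 147 and 154 CPM in the other barcodes, and the erythroid list is where members lie farthest below the other barcodes, at 365 against 54172 CPM in WT.

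Among 18 macrophage transcription factors, 10 could be tested and 4 were at least 8-fold higher in members, against 7.46% of all genes tested. They were Spi1, Irf8, Maf and Cebpb. Spi1 had 337 and 351 CPM in WT and KO members, against 2.05 and 1.82 CPM in the other barcodes. Irf8, which works with PU.1, stood at 116 and 139 CPM, Maf at 784 and 685 CPM and Cebpb at 355 and 254 CPM. Runx1, needed for blood cell formation, stood at 88.8 and 112 CPM against 10.3 and 14.2 CPM. These factors set members apart to unequal degrees, of those named here Spi1 most and Runx1 least.

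The PU.1-type motif GAGGAAGT was found in 26 of 237 promoter windows (11%) of the 192 genes, among the 261 that were 8-fold higher in members, which RefSeq windows could be matched to. Of all 32851 windows, 1052 (3.20%) hold it. The MAF motif TGCTGAC was found in 3.80% of these windows and 4.67% of all, and the AP-1 motif TGACTCA in 4.64% and 5.20%. Both strands were searched, and the MAF motif and the AP-1 motif, which share the letters TGAC, can overlap. Among the 15 windows of the 13 leading genes that matched, the PU.1-type motif is in that of C1qc alone, the AP-1 motif in C3ar1 and in 1 of the 2 windows of Folr2, and the MAF motif in none. Besides C1qc, the windows of Ctsc, Ctss, Elmo1, F13a1, Hpgds and Pf4 hold the PU.1-type motif among the genes named here. Those of Ctss, a protease of the lysosome (chr3:95526536-95526835, plus strand), and of F13a1 (chr13:37049164-37049463, minus strand) are shown with the motif in capitals, since both genes stand out below. The motif lies across the start in the Ctss window and just after it in the F13a1 window.
Ctss: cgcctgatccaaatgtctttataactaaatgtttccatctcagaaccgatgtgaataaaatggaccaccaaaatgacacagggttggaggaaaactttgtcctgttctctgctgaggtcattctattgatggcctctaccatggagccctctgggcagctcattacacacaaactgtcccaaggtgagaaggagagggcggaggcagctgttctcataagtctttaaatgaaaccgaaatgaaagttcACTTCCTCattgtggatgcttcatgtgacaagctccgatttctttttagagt
F13a1: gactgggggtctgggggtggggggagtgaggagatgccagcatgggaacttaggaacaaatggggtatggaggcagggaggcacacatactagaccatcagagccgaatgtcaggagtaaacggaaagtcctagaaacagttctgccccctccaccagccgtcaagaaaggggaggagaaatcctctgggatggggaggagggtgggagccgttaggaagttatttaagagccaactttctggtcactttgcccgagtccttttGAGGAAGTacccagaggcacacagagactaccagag
A match describes the letters of the window and does not show that a factor binds there.

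Many tested genes of the uptake and degradation of cells and particles set the members apart. Of 6 tested complement and Fc receptor genes all were at least 8-fold higher, against 7.46% of all genes tested. Of 8 tested genes of apoptotic cell uptake and scavenging 7 were. Of 22 tested lysosomal genes 11 were, with a median log2 ratio of 3.11. The lists hold 12, 20 and 23 genes in this order. Fcgr1 and Fcgr3, receptors of immunoglobulin G, reached 184 and 452 CPM in WT and 189 and 413 CPM in KO members. C5ar1, a receptor of the complement fragment C5a, reached 104 and 82.7 CPM. Gas6, which bridges phosphatidylserine to the TAM receptor kinases, stood at 166 and 198 CPM against 3.62 and 5.45 CPM in the other barcodes. Its receptors set members apart less: Mertk was at 32.9 and 31.6 CPM against 7.08 and 6.65 CPM, Axl at 26.2 and 29.6 CPM against 23.0 and 21.5 CPM, and Tyro3 had 3 and 9 UMIs. Ctsb reached 2346 and 2112 CPM, Ctss 493 and 523 CPM against 1.24 and 0.501 CPM, and Lgmn, the asparaginyl endopeptidase, 977 and 971 CPM.

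Some lipid and iron genes were also higher in members. Apoe, the carrier of lipids secreted by macrophages, reached 8608 and 11157 CPM in WT and KO members, against 63.8 and 67.7 CPM in the other barcodes, and had UMIs in every member. Abca1, which exports cholesterol, stood at 204 and 256 CPM and Lpl, lipoprotein lipase, at 276 and 342 CPM. Of 9 tested lipid genes 5 were 8-fold higher, and of 10 tested heme and iron genes 4, against 7.46% of all genes tested. Hmox1, which degrades heme, reached 398 and 435 CPM, the iron exporter Slc40a1 144 and 159.9 CPM, Slc11a1 61.3 and 59.3 CPM and Trf, transferrin, 107 and 176 CPM. The ferritin genes Ftl1 and Fth1 reached 10652 and 6316 CPM in WT and 11637 and 7695 CPM in KO, under 8-fold above the other barcodes. Spic, the transcription factor of red pulp macrophages that recycle iron, had 9 and 6 UMIs.

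The cytokines and chemokines that could be tested were higher in members. Of a list of 22, 13 could be tested and all were at least 8-fold higher, against 7.46% of all genes tested. Ccl3 stood at 344 and 451 CPM, Ccl4 at 371 and 602 CPM and Ccl24 at 141 and 115 CPM. Of 4 tested growth factors Tgfb1 alone was 8-fold higher, at 176 and 168 CPM. Igf1 stood at 135 and 197 CPM against 88.6 and 104 CPM in the other barcodes. Bmp4 stood at 27.0 and 11.7 CPM, below the 76.5 and 77.4 CPM of the other barcodes. It was the 1 of 6 growth factors tested between the libraries that was 2-fold lower in KO members, against 1.02% of all genes tested. Its log2 ratio was -1.21 (-1.85 to -0.60), past 2-fold in 15 of 17 alternatives and 0.37 under a mitochondrial share of 5%. Of 9 tested mesenchymal genes 4 were 2-fold lower in KO members as well, against the same 1.02%, and a link to Bmp4 was not tested. Pdgfb, a ligand of PDGFRβ, had 16 UMIs in WT and 18 in KO members, at 4.46 and 7.02 CPM. Of the ligands of CSF1R, Csf1 was at 11.4 and 5.46 CPM and Il34 had no UMI in members. In the other barcodes these ligands stood at 4.57 and 4.29 CPM (Csf1) and 0.109 and 0.0358 CPM (Il34). For Csf1, WT members thus lay above the other barcodes, at 11.4 against 4.57 CPM, while the KO levels were close, at 5.46 against 4.29 CPM. Csf1 had too few UMIs in members to be tested against the other barcodes, so no difference is read from these levels. The receptor gene Csf1r belongs to the rule, so its presence in members describes the choice.

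Antigen presentation rested on class I genes. B2m stood at 683 and 593 CPM, H2-D1 at 162 and 143 CPM and H2-K1 at 96.3 and 103 CPM. With the costimulatory gene Cd86, at 74.9 and 83.4 CPM, these were the 4 tested genes of the list. All were 8-fold higher in members, against 7.46% of all genes tested. Of class II, H2-Aa and its activator Ciita had no UMI, H2-Ab1 had 5 and 3, and Cd74, the invariant chain, was at 21.7 and 27.7 CPM. Of the innate sensors, Tlr2 stood at 40.9 and 48.3 CPM, Tlr7 at 30.6 and 37.8 CPM and Nlrp3 at 40.1 and 32.0 CPM. The interferon response genes Isg15 and Ifit3 stood at 7.80 and 1.67 CPM in WT and 17.2 and 3.90 CPM in KO, from 44 UMIs or fewer, too few to be tested.

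Members held cell cycle RNA at about the level of the other barcodes. No gene of the S phase list (14 tested) or of the G2 and M phase list (15 tested) was 8-fold higher. Of all genes tested 7.46% were, and the medians of the log2 ratio in these lists were 0.05 and -0.18. After thinning each member to 2000 UMIs, 35.7% of WT and 34.6% of KO members held 5 or more UMIs of the G2 and M phase list, against 38.0% and 34.8% of 2000 other barcodes drawn at random. For the S phase list the shares were 28% (21.2 to 35.7%) in WT and 12.8% (7.63 to 19.7%) in KO, against 21.2% and 18.3% of the other barcodes. The intervals cover counting of members within 1 library and do not bear on a difference between genotypes. Without thinning, the S phase list summed to 1565 and 1329.5 CPM in members, and its free RNA level was 1369.6 and 1432 CPM. The part of free RNA in these shares was not tested, and they are not read as counts of dividing cells.

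Members differed among themselves most in a small set of genes. The Fano factor, the variance over the mean of UMIs after thinning to 2000 per member, is about 1 for counting noise alone. It was 13.7 in WT and 17.9 in KO for Apoe, 8.55 and 13.4 for Cxcl2, 9.41 and 13.9 for Ccl4, 7.56 and 13.5 for Il1b and 11.5 and 6.03 for Hmox1. Apoe, Hmox1, Malat1, Ccl4, Ccl3, Cxcl2, Tmsb4x, Il1b, Mt1, Ftl1, Fos and Fth1 were among the 20 highest in both libraries, 12 genes in all. C1qb, a gene of the rule, whose lowest values the threshold removes in part, had 2.21 and 2.40. Apoe had the highest value in both libraries.

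Of the varying genes described next, Apoe was found in every member, while Cxcl2 and Il1b were carried by few members. Apoe ranged from 168 to 46558 CPM over WT members and from 341 to 59645 CPM over KO members, with medians of 9132 and 9386 CPM. Both lowest values came from deep members near the threshold and without a C1qa UMI. The WT member had 47756 UMIs with 11 marker UMIs, and the KO member 35180 UMIs with 13. Cxcl2 had a UMI in 20 WT and 14 KO members (12.7% and 10.5%, against 0.259% and 0.125% of other barcodes), where it reached up to 7130 and 9363 CPM. Il1b had a UMI in 29 and 16 members, with maxima of 7976 and 9744 CPM. Apoe was thus in all members at a wide range, and Cxcl2 and Il1b were absent from most members and high in a few. Hmox1 had both traits, with medians of 150.01 and 101 CPM and 26.1% and 29.2% of its UMIs in 1 member of each library.

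**Figure D3:**
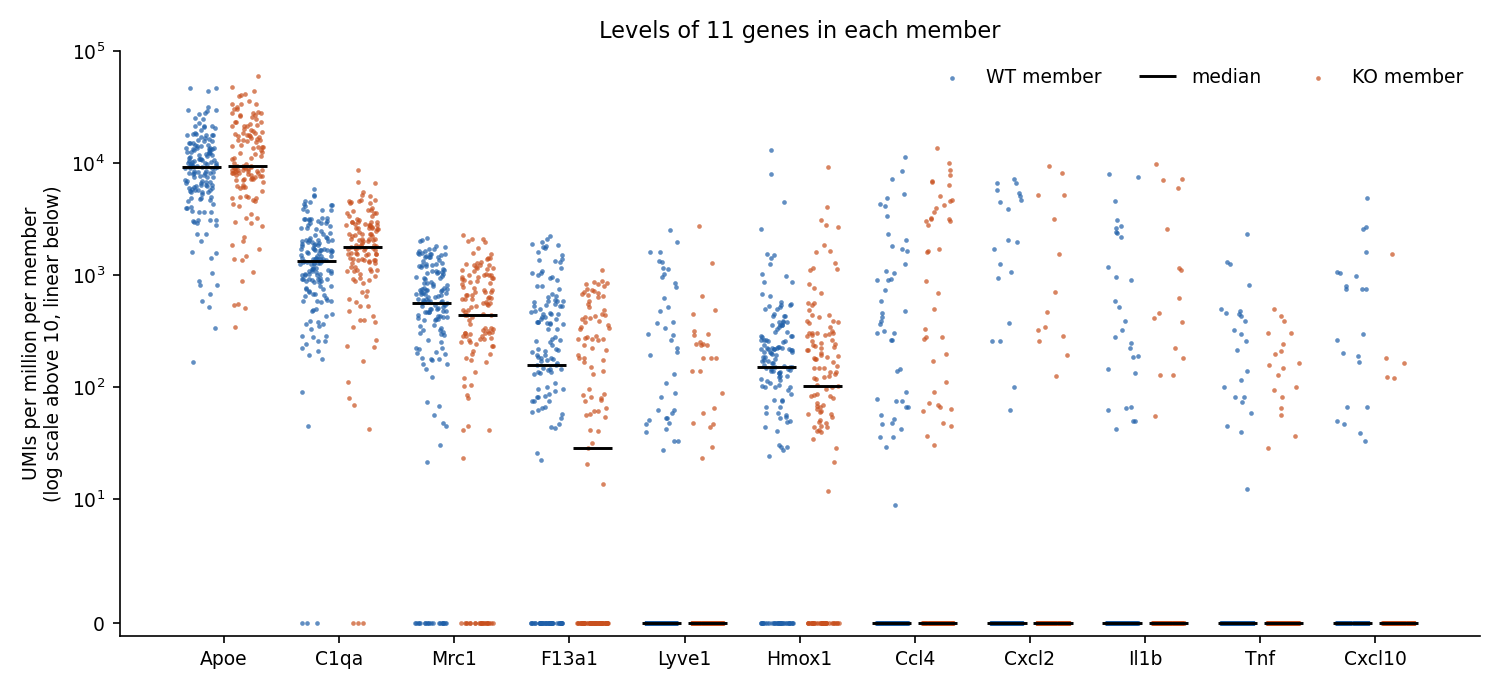
Level of 11 genes in each of the 157 WT (blue) and 133 KO (orange) members, in CPM of the member (y axis, log scale above 10 and linear below); bars are medians. Apoe, C1qa and Mrc1 are spread around medians well above 0, whereas Lyve1, Ccl4, Cxcl2, Il1b, Tnf and Cxcl10 have a median of 0, with points above 0 in 48 (Ccl4) or fewer WT members and 42 (Ccl4) or fewer KO members.

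Of 14 tested immediate early and heat shock genes, 6 were at least 8-fold higher in members, against 7.46% of all genes tested. They were Junb, Atf3, Ier3, Nfkbiz, Zfp36 and Hspa1a. Junb stood at 209 and 211 CPM, against 17.6 and 22.6 CPM in the other barcodes. Several inflammatory genes were held largely by the same members. The 20 WT members with a Cxcl2 UMI, a group chosen after the values were seen, held 11.7% of all UMIs of the members but 86.6% of those of Il1b, 91.1% of Il1a, 89.5% of Tnf, 96.5% of Cxcl10, 61.2% of Ccl3 and 79.4% of Junb. In KO, 14 such members held 11% of all UMIs and 89.2%, 96.4%, 63.0%, 88.1%, 52.9% and 64.8% of those of the same genes. A single KO member held most of the Cxcl10 UMIs, and a single WT member a large part of the Tnf UMIs, as given below. The shares in WT and KO were 56.7% and 52.9% for Ccl4 and, among immediate early genes, 60.7% and 35.3% for Fos, 70.6% and 50% for Zfp36 and 72.0% and 51.5% for Nfkbiz. These members' shares of Apoe UMIs were 10.9% and 10.1% and of C1qa UMIs 13.5% and 10.3%, close to their share of all UMIs. Their median depth was 16975.5 UMIs in WT, below the 19723 UMIs of the members without Cxcl2, and 17932.5 UMIs in KO, above 16456 UMIs. A small group of members thus carried most UMIs of Il1a, Il1b, Tnf and Cxcl10 in each library, and its share of the Apoe UMIs was near its share of all UMIs. C1qa is a gene of the rule, so no conclusion is drawn from its share.

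A second set of genes went with Lyve1, the hyaluronan receptor of perivascular macrophages. The 41 WT members with a Lyve1 UMI, a group also chosen after the values were seen, held 27.8% of all UMIs and 55.3% of those of F13a1, 51.6% of Folr2, 54.2% of Pf4 and 45.4% of Mrc1. In KO, 26 members held 24.8% of all UMIs and 37.4%, 50.5%, 41.7% and 37.6% of those genes. Their shares of C1qa UMIs were 26.5% and 26.2%, and of P2ry12 UMIs 24.5% and 23.4%. Members with Lyve1 thus held more than their share of F13a1, Folr2, Pf4 and Mrc1 UMIs, more sharply for F13a1 in WT than in KO. The microglia-associated P2ry12 was in members with and without Lyve1, at 50.1 and 59.4 CPM in WT and 51.8 and 56.0 CPM in KO.

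Between the libraries, most genes of the members lay close together. Of 6397 genes with at least 100 UMIs over the members of both, 22 (0.344%) were at least 2-fold higher and 65 (1.02%) at least 2-fold lower in KO members, 90.9% lay within 0.5 of 0 on the log2 scale, and the median was -0.02. None of the 20 pan-macrophage genes, 9 complement and Fc genes and 23 lysosomal genes differed 2-fold, with median log2 ratios of 0.08, -0.05 and 0.04. Of the 5 genes of the rule, C1qa differed most, at 0.38. With so few genes called over all genes tested, the absence of calls in these lists is no result about them.

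Part of the 2-fold differences was shared by the rest of the library. Of the 22 higher genes 5 and of the 65 lower genes 30 were also at least 2-fold apart in the same direction in the other barcodes. The lower genes include 4 of 84 ribosomal protein genes (Rpl35, Rpl38, Rps27 and Rps29) and 2 of 13 mitochondrial genes (mt-Atp8 and mt-Nd4l). These were named after their values were seen, and 1.02% of all genes tested were lower. Of 14 tested histone genes, 3 were higher and 3 lower, against 0.344% and 1.02% of all genes tested. Rps29 stood at a log2 ratio of -1.34 in members and -1.42 in the other barcodes, and Rpl38 at -1.34 and -1.38. Usp50 was at -3.92 and -3.61, Hmga1 at -2.14 and -1.71 and Snhg9 at -1.67 and -1.37. AY036118 (chr17:39847113-39848035) and Gm42418 (chr17:39846958-39848788) overlap on opposite strands, and whether this affects their counts was not tested. They were higher, at 2.49 and 1.05 in members and 2.23 and 0.76 in the other barcodes. The genes given here with both ratios differed between the libraries in members and other barcodes alike.

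**Figure D4:**
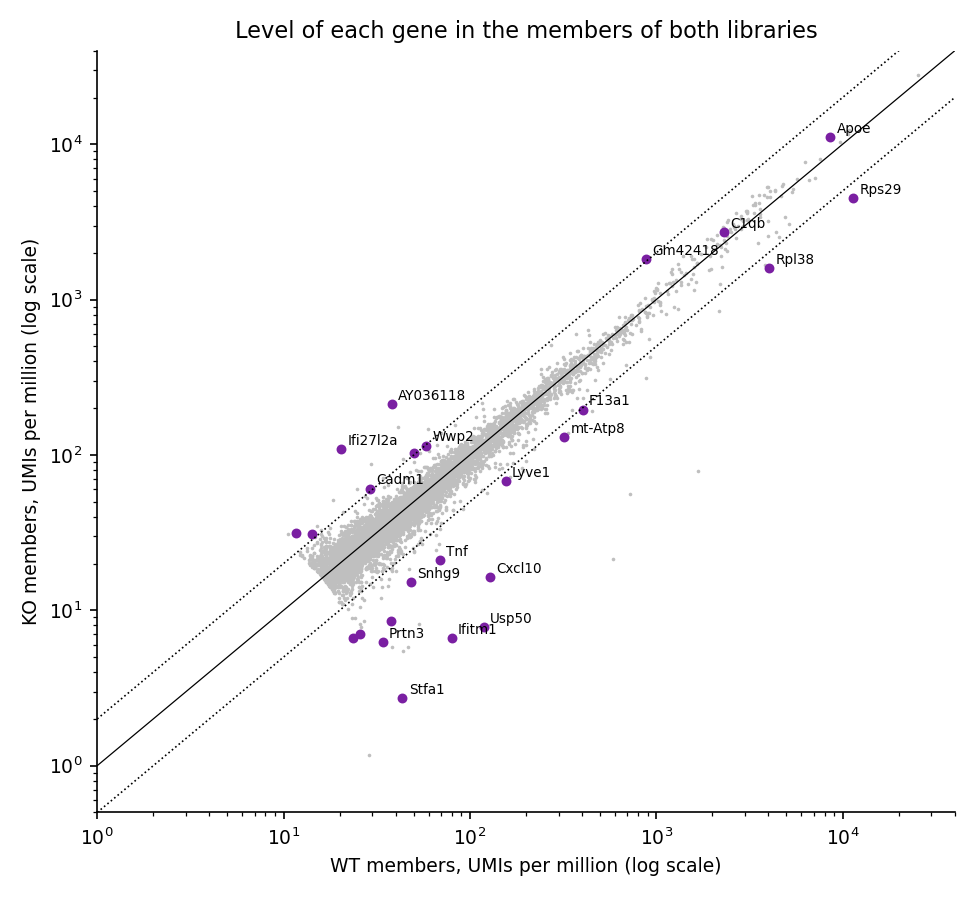
Level of each tested gene in WT members (x axis) against KO members (y axis), in CPM on log scales; the line marks equality and the dotted lines 2-fold, purple points are genes named here, and genes without a UMI in 1 library are not drawn. Most points lie between the dotted lines, and the labelled genes outside them range from Rps29, at 11367 and 4484 CPM, down to Stfa1, at 43.4 and 2.73 CPM.

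Lyve1 and F13a1 were lower in KO. Lyve1 (chr7:110850607-110863239) had 558 UMIs in WT members, 155 CPM (143 to 169), and 175 UMIs in KO members, 68.2 CPM (58.5 to 79.1). The log2 ratio was -1.19 (-1.44 to -0.94). It had a UMI in 26.1% and 19.5% of members, and in 11.5% and 4.51% after thinning to 2000 UMIs. F13a1, the A subunit of coagulation factor XIII (chr13:36867178-37050244), had 1448 UMIs in WT members, 403 CPM (383 to 425), and 503 UMIs in KO members, 196 CPM (179 to 214). Its log2 ratio was -1.04 (-1.19 to -0.89). Its share of members with a UMI was 70.7% and 51.9%, and 36.3% and 26.3% after thinning. Over members, F13a1 had a median of 157 CPM in WT, with a maximum of 2229 CPM, and of 28.3 CPM in KO, with a maximum of 1095 CPM, so that the ranges overlapped. These were the 2 of 8 tested resident receptor genes that were 2-fold lower, against 1.02% of all genes tested, and the list was fixed with earlier results of these data known. Folr2 had a log2 ratio of -0.52, Dab2 -0.40, Stab1 -0.29, Mrc1 -0.12 and Pf4 0.26, and the median over the list was -0.35. In the other barcodes the ratio was 0.38 for Lyve1 and -0.21 for F13a1. The members with most UMIs of a gene held 12.5% of the Lyve1 UMIs in WT and 25.7% in KO. Over 18 alternatives the ratio lay between -2.44 and -0.91 for Lyve1, past 2-fold in 17, and between -1.36 and -0.83 for F13a1, past 2-fold in 14. Lyve1 was under 2-fold, at -0.91, without the decile of members richest in markers of other cells.

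The inflammatory genes differed unevenly. Cxcl10, a chemokine induced by interferon (chr5:92346638-92348889), had 458 UMIs in 22 WT members, 128 CPM (116 to 140), and 42 UMIs in 5 KO members, 16.4 CPM (11.8 to 22.1). The log2 ratio was -2.96 (-3.45 to -2.50). Tnf stood at 68.8 and 21.1 CPM, a log2 ratio of -1.71 (-2.16 to -1.28), with a UMI in 24 and 19 members. In WT, 1 member held 40.9% of the Tnf UMIs and the most was 2295 CPM, against 496 CPM in KO. Tnf, the gene of tumor necrosis factor, was thus found in a like share of members, and the highest member made much of the difference: without the member richest in Tnf in each library the ratio was -1.18. It was under 2-fold after thinning, at -0.65, without the decile richest in markers of other cells, at -0.90, and relative to the other barcodes, at -0.86. For Cxcl10, 1 KO member held 76.2% of the UMIs, and without the richest members the ratio was -4.62. Tnfsf9, the ligand of 4-1BB, had a ratio of -1.87. Of the other cytokines, some were above 0 and some below, with Ccl4 at 0.70, Ccl12 at 0.91, Il1b at 0.19, Cxcl2 at -0.32 and Ccl2 at -0.73, none of them 2-fold. The whole list of 17 tested genes had 0 higher and 2 lower, against 0.344% and 1.02% of all genes tested, with a median of 0.08.

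Of the genes higher in KO members, some differed in the other barcodes too and some did not. Ifi27l2a, an interferon-induced gene (chr12:103442167-103443680), had 73 UMIs in WT members, 20.3 CPM (15.9 to 25.6), and 279 UMIs in KO members, 109 CPM (96.4 to 122). Its log2 ratio was 2.42 (2.04 to 2.81), against 0.09 in the other barcodes. It had a UMI in 19.7% and 34.6% of members, in 5.10% and 17.3% after thinning, and in 1.77% and 1.84% of the other barcodes. Its ratio was between 2.13 and 2.80 in the 18 alternatives. Isg15, with 28 and 44 UMIs under the minimum for a comparison, was at 1.14 (0.42 to 1.88). Cadm1, an adhesion molecule, was at 1.07 and 0.03, Bcl2l1, which encodes the survival protein Bcl-xL, at 1.14 and 0.32, and Rgs1 at 1.03 and 0.90. Over 18 alternatives Cadm1 was past 2-fold in 15, Bcl2l1 in 14 and Rgs1 in 14, with lowest ratios of 0.93, 0.78 and 0.13. Ifi27l2a and Cxcl10, both induced by interferon, thus differed in opposite directions. Eif2s3y, on the Y chromosome, had the largest increase, a log2 ratio of at least 6.18 against a floor of 3 UMIs over the WT members, and Wwp2 was at 0.98, under 2-fold, with 41.7% of its KO UMIs in 1 member.

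Several large decreases were of genes with many UMIs in 1 WT member. Stfa1, a cystatin of granulocytes, had a log2 ratio of -3.99 with 85.9% of its 156 WT UMIs in 1 member. Ifitm1 was at -3.59 with 63.8% in 1 member, and Prtn3, proteinase 3 of myeloid progenitors, at -2.45 with 42.6% in 1 member. Without the member richest in each gene in each library, the ratios were -1.97, -2.89 and -2.47. Stfa1 then has fewer UMIs than the minimum of 100 for a comparison. Its ratio was -1.12 with a marker sum of 20 or more and -1.22 with 1 marker UMI per 1000 UMIs. Over 18 alternatives, Ifitm1 lay between -4.46 and -1.35 and Prtn3 between -4.16 and -1.38. Mpo had 71 UMIs in WT and 0 in KO members, and Gata2, a transcription factor of progenitors and mast cells, 79 and 0, with 69.6% of them in 1 member. Of 9 tested mesenchymal genes, 4 were 2-fold lower in KO as well, against 1.02% of all genes tested, Col1a1 at -1.11, Postn at -1.34, Tcf21 at -2.71 and Dcn, from 103 and 3 UMIs, at -4.62 (-6.92 to -3.03), against -0.90, -1.06, -0.70 and -1.40 in the other barcodes. The erythroid genes Hbb-y and Hba-x were at -1.01 and -1.12, against -1.36 and -1.73, so that relative to the other barcodes they turned to 0.35 and 0.61. Each of these lies below its level in the other barcodes in both libraries. With free RNA subtracted, Col1a1 was at -1.15, Postn at -1.35, Tcf21 at -2.82, Dcn at -5.33 and Hba-x at -1.40. Without the decile of members richest in markers of other cells, Col1a1 was at -1.54, Postn at -0.91, Tcf21 at -4.59, Dcn at -2.47, Hbb-y at -0.89 and Hba-x at -1.04. Over 18 alternatives, Dcn was past 2-fold in 18, Tcf21 in 17, Col1a1 in 16, Postn in 14 and Hba-x in 16. Hbb-y was past 2-fold in 8 of 17.

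**Figure D5:**
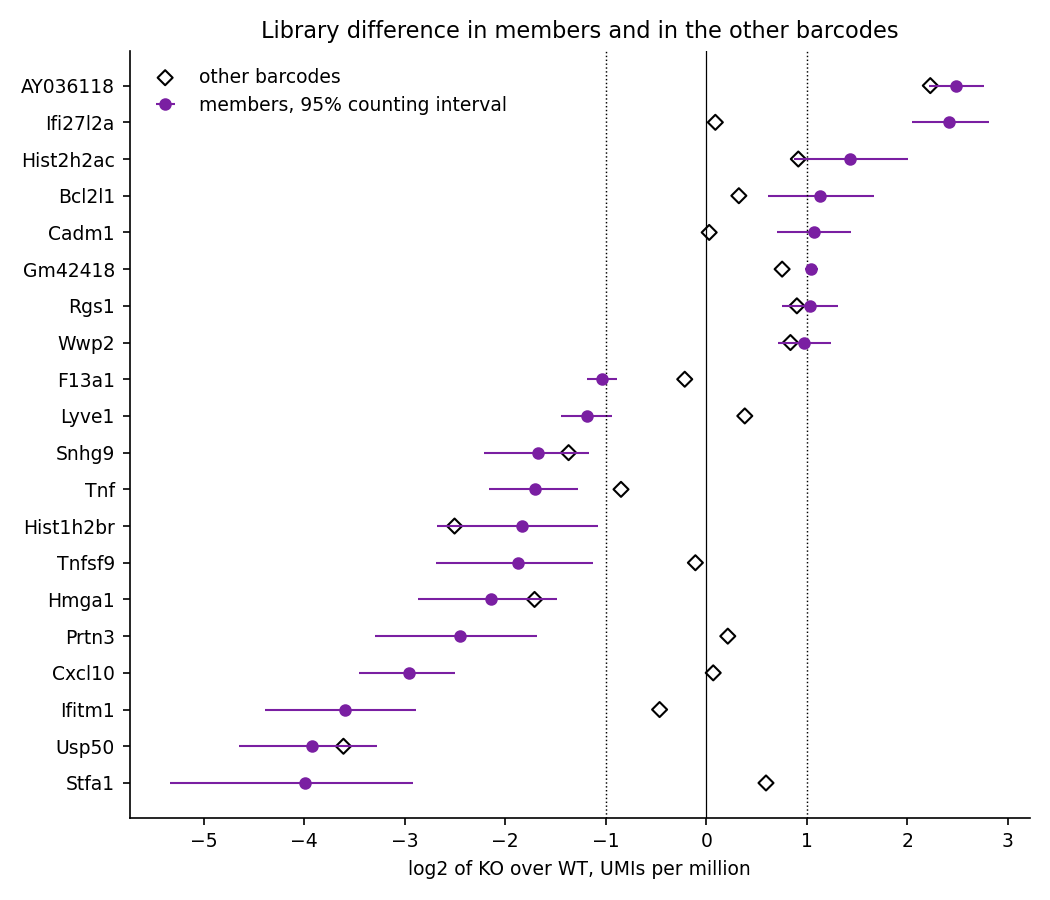
Log2 ratio of KO over WT (x axis) in members with the 95% counting interval (purple) and in the other barcodes (open diamonds) for genes with large differences between the libraries, without Eif2s3y, and for Lyve1 and F13a1; dotted lines mark 2-fold. Members and other barcodes lie together within 0.5 of each other for AY036118, Usp50, Hmga1 and Snhg9, and farther apart for Ifi27l2a, Cxcl10, Lyve1, F13a1 and Stfa1.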

How the data were processed

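Single-cell RNA sequencing measured 1 WT and 1 KO library. The authors aligned the reads and counted UMIs with Cell Ranger 3.1.0 on mm10/GRCm38, and deposited unfiltered UMI counts for every gene and barcode. WT held 179743201 and KO 174597654 UMIs. For the values given here, no cells were called and no doublets removed. The authors had called cells and left out KO cells with detected PDGFRβ.

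Members and lists were chosen with earlier results of these data known. UMIs were summed over members and over the other barcodes, with exact 95% intervals for counting error. A gene was compared with the other barcodes from 100 UMIs in the members of each library, and between libraries from 100 UMIs in both together. Genes named are those of the rule, of fixed lists, the 20 most above the other barcodes, the 10 with the largest increase and the 10 with the largest decrease in KO that were no lower in members than in the other barcodes where higher, and the 20 with the highest Fano factors in each library.

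Python 3.11.15, numpy 2.4.6, scipy 1.17.1, pandas 2.3.3, matplotlib 3.10.9 and, for TMM factors, edgeR 4.0.16 in R 4.3.3 were used. Some genes that these rules name are not reported here. Statistics were tested on simulated data. Alternatives covered the membership rule, depth, mitochondrial share, free RNA, doublets, the gene minimum and scaling. Gene positions come from GENCODE M21 and promoters from RefSeq (GRCm38.p6).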

Additional observations from a re-analysis of the deposited data

Results flagged for a closer look

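For 10 of the genes named for a library difference, members lay on one side of the other barcodes in WT and on the opposite side in KO, a difference that was not tested. The rule that named these genes asked that members be no lower than the other barcodes in the library where the gene was higher. The sign in that library was therefore fixed by the naming, and only the sign in the other library was free. On the log2 scale of members over other barcodes, Bcl2l1 was at -0.60 in WT and 0.21 in KO, Cadm1 at -0.78 and 0.26, Hist2h2ac at -0.35 and 0.16, and Gm42418 at -0.17 and 0.12. In the opposite direction, Prtn3 was at 1.38 and -1.28, Ifitm1 at 0.060 and -3.07, Stfa1 at 0.40 and -4.19, Usp50 at 0.032 and -0.28, Snhg9 at 0.20 and -0.10, and Hmga1 at 0.27 and -0.16. Most of these values are close to 0, and those farthest from it belong to Stfa1, Ifitm1 and Prtn3, with 85.9%, 63.8% and 42.6% of their WT UMIs in 1 member.

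Barcodes outside the filters also held macrophage RNA. Of barcodes with at least 500 and under 2000 UMIs, 9 in WT and 10 in KO held 10 or more UMIs of the 5 marker genes, and of those with 10% or more mitochondrial UMIs, 6 and 8 did. They enter no comparison.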

How the results depend on the processing

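Every value rests on 1 library per genotype, and depth limits what single members show: thinned to 2000 UMIs, members had 334 genes to compare with the other barcodes and 802 between the libraries. No paired analysis was possible because each genotype has 1 library and none could be left out. The share of members became 1.55% in WT and 1.36% in KO from 1000 UMIs, and under a mitochondrial share of 5% it was 2.06% in KO, with a log2 ratio of shares of 0.17, 138 genes 8-fold higher, and Bmp4 at 0.37 in place of -1.21. Genes 8-fold higher, 2-fold higher in KO and 2-fold lower in KO numbered 475, 199 and 286 with a gene minimum of 20 UMIs, 158, 12 and 36 with 200, and 50, 3 and 14 after thinning, where fewer genes can be compared. The mean of per-cell CPM gave 103 lower genes. Leaving out the decile of members richest in markers of other cells gave 10 higher genes. In 2 alternatives chosen after seeing the data, 11 genes were higher without the richest member of each gene, and relative to the other barcodes 55 were, 7 of them among the 22, with Hbb-y at 0.35, Hba-x at 0.61 and Hist1h2br at 0.67 in place of negative ratios. In the alternatives not named so far with another count, the number of genes 8-fold higher lay between 257 and 277. TMM factors gave 22 and 65 genes, and centring on the median 22 and 63. The causes of the changes other than by fewer genes were not tested.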
